A study of Mus musculus with 30 samples.

Results

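Tumors of ARE-del heterozygous mice that received anti-PD1 together with anti-CD40 (the combination) were compared with tumors of ARE-del heterozygous mice that received control IgG2A. The 8 libraries, 4 in each group, were taken from the 30 of the series by the genotype and treatment in their titles and column names, and no measured value was used to choose them. All 30 were RNA libraries of subcutaneous B16F10 melanomas, a pigmented mouse melanoma line, grown in the flank of female C57BL/6 mice. Both groups share the genotype label ARE-del +/- (called HET here), which belongs to the host and not to the injected tumor cells. Per the labels' protocols, dosing began after 7 days of growth and was given 2 times a week. The combination group received 0.25 mg antibody doses of a blocking antibody to PD1 and an agonist antibody to CD40. The controls received rat IgG2A, whose dose is not given. The HET hosts given anti-PD1 alone (3 libraries) or anti-CD40 alone (4), and the wild type hosts given IgG (5) or the combination (3), were used to place the response. All 30 libraries also entered the filter on low values and the estimate of spread behind the limma p-values. The labels do not say that replicates come from separate animals, so every p-value measures the spread between these samples.

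ARE-del mice lack the AU-rich element that shortens the life of the Ifng transcript, so their interferon-gamma persists at higher levels. The counted reads cover whole genes and cannot check that genotype. PD1 is an inhibitory receptor of activated T cells, and CD40 is a receptor of dendritic cells, macrophages and B cells through which T cells license antigen presentation. Interferon-gamma acts on most cell types, where it induces guanylate-binding proteins, immunity-related GTPases, chemokines that draw T cells, the immunoproteasome and MHC class I, and, through CIITA, MHC class II.

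The 4 combination libraries held 27365696 to 35996574 reads and the 4 IgG libraries 21849047 to 29995970. The melanoma label was checked on melanocyte genes, which were high in all 8. Dct, an enzyme of melanin synthesis, stood at 9150, 11200, 8056 and 9883 CPM in the combination tumors and 9579, 15700, 12220 and 9486 CPM in the IgG tumors, in replicate order 1 to 4 here and in every list of values below. IgG replicates 2 and 4 stood apart from the rest. IgG replicate 2 had 6.53% of its reads on mitochondrial genes, against 0.897% to 2.61% in the other 7, had no read for 1554 genes and had the lowest Xist value (log2 1.23). IgG replicate 4 carried skeletal muscle transcripts at 632 CPM summed over 31 genes, against 57.8 to 66.4 CPM in the other IgG libraries. The library names hold an L number that the labels do not explain: all 4 combination libraries are L8, and the IgG libraries are L6, L7, L7 and L8. Differences fitted with that number as a covariate, and differences within L8 (4 combination libraries against IgG replicate 4 alone), are therefore given beside some list medians. Values printed without them, those of single genes among them, take no account of the L number.

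No gene passed the adjusted test between combination and IgG, 0 of 15002 genes (0%) in limma with Benjamini-Hochberg adjustment. The smallest adjusted p was 0.186. At an unadjusted p under 0.05, 969 genes stood higher (6.46% of those tested) and 503 lower (3.35%), together 9.81%. The voom fit on the reads recovered from the values also called 0 genes, with 839 higher and 505 lower at that unadjusted level. The 4 combination libraries all lay above the 4 IgG libraries for 544 genes (3.63%) and all below for 210 (1.4%). Among genes with an unadjusted p under 0.05 the share of higher ones was 65.8%, and 49.9% after quantile normalization. Single libraries and settings moved these counts: 2292 genes had an unadjusted p under 0.05 without IgG replicate 4, 867 without combination replicate 1, 787 without combination replicate 3, and 161 with the L number as covariate. With library weights limma called 407 genes, 288 higher and 119 lower. Of all genes tested 49.6% had a positive difference, and the median log2 difference over them was -0.003. Every gene described below therefore differs at most before correction, and its values are given as measured.

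The genes with the largest positive differences, among those with an unadjusted p under 0.05, no overlap and a mean log2 value above 0, were Cfd, Anxa8, Col17a1, Hp, Ccl8, Dpt, Saa3, Apol9a, C3, Mmp3, Lrg1 and Lyve1. They mix several kinds of gene. Cfd (complement factor D, also called adipsin) is made by fat cells. Hp, Saa3, C3 and Lrg1 are acute-phase or complement proteins. Col17a1 and Anxa8 are epithelial, Dpt and Mmp3 are matrix genes, and Lyve1 marks lymphatic endothelium and some macrophages. Apol9a and the chemokine Ccl8 are interferon-induced.

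Cfd stood at 16.3, 2.07, 22.5 and 80.7 CPM in the combination tumors and 1.18, 0.417, 0.318 and 0.0754 CPM in the IgG tumors, a log2 difference of 5.17 ± 1.37 (SE, adjusted p = 0.251 in limma). Haptoglobin, Hp, stood at 22.6, 5.88, 26.3 and 226 CPM in the combination tumors and 1.08, 1.43, 1.63 and 1.09 CPM in the IgG tumors (4.45 ± 1.10). In both genes combination replicate 4 was the highest of the 8 libraries and combination replicate 2 the lowest of its group. Col17a1, a hemidesmosome collagen of basal keratinocytes, showed another order, at 16.2, 13.7, 8.18 and 0.405 CPM in the combination tumors and 0.131, 0.358, 0.0454 and 0.189 CPM in the IgG tumors. Its combination replicate 4 lay next to the IgG libraries, and its difference of 4.53 became 0.41 with keratinocyte and muscle scores as covariates. Ccl8, a monocyte-attracting chemokine, stood at 24.01, 12.98, 92.3 and 34.2 CPM in the combination tumors and 2.85, 0.298, 0.726 and 6.597 CPM in the IgG tumors (4.34 ± 1.30). Combination replicate 3 was the highest for Ccl8, and no IgG library reached the lowest combination library. C3, the central complement component, stood at 8.195, 11.1, 34.7 and 92.7 CPM in the combination tumors and 1.15, 0.775, 1.36 and 7.95 CPM in the IgG tumors (3.65 ± 0.98).

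**Figure D1:**
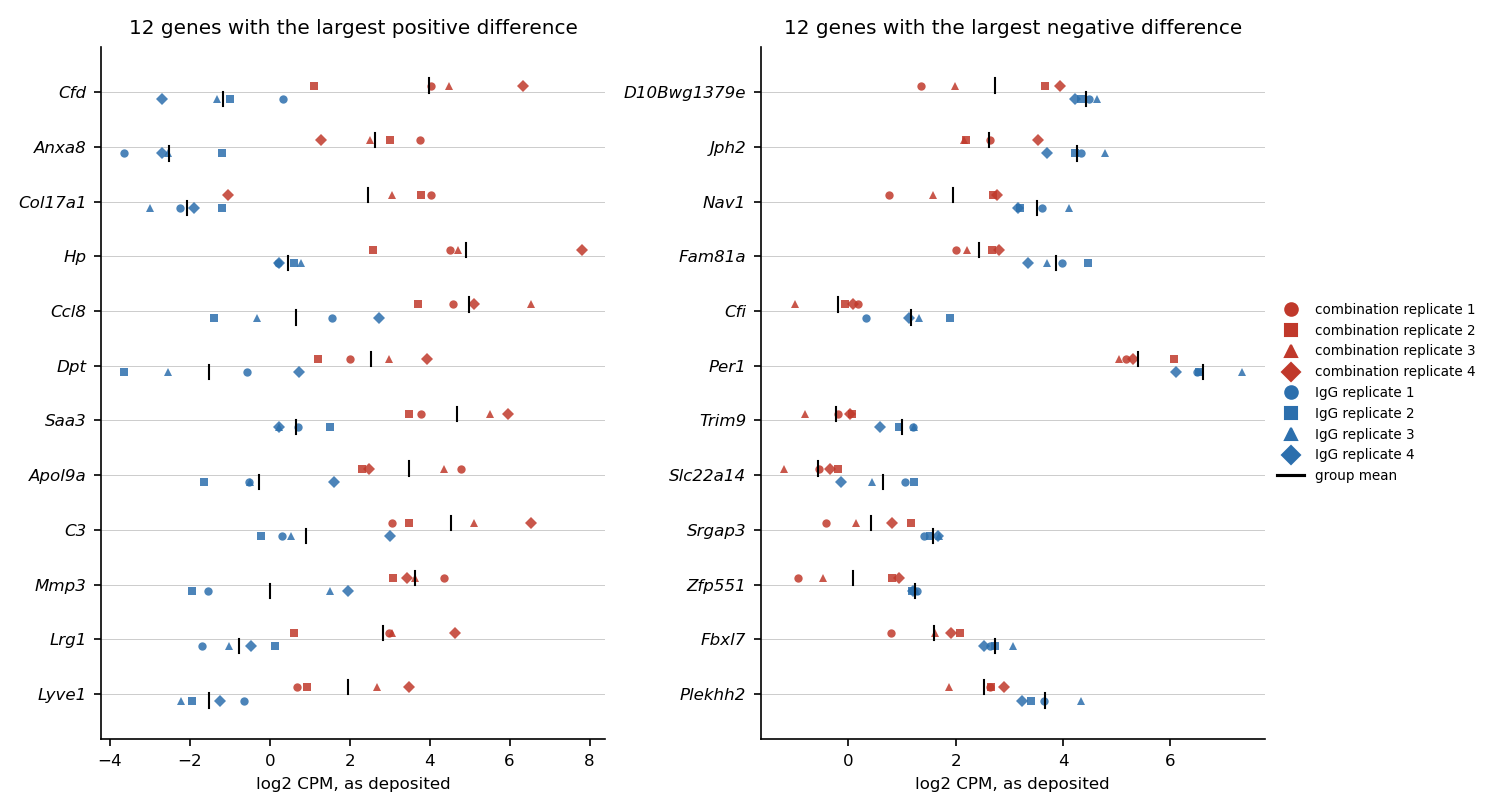
Deposited log2 CPM (x axis) of the 12 genes with the largest positive and the 12 with the largest negative difference, with 1 point per library and black bars for the group means. No gene shown overlaps between groups, because the choice required that; combination replicate 4 is the highest point for Cfd, Hp, Saa3, C3, Lrg1 and Lyve1 and the lowest combination point for Anxa8 and Col17a1.

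The genes with the smallest adjusted p, 0.186 each, were picked after their values were seen. They were Mndal (ENSMUSG00000090272.3, chromosome 1, 173849126 to 173942491), C130026I21Rik (ENSMUSG00000052477.11, chromosome 1, 84992690 to 85270566), Casp1 (ENSMUSG00000025888.5, chromosome 9, 5298517 to 5307265), Apol9b (ENSMUSG00000068246.5, chromosome 15, 77729039 to 77736382) and Ms4a8a (ENSMUSG00000024730.7, chromosome 19, 11067471 to 11081102), with mm10 coordinates. Mndal, an interferon-inducible DNA sensor of the PYHIN family, stood at 22.4, 10.6, 20.96 and 16.9 CPM in the combination tumors and 2.23, 0.417, 3.18 and 7.12 CPM in the IgG tumors, a log2 difference of 2.91 ± 0.55. Casp1, the protease that matures interleukins 1β and 18, stood at 25.5, 9.25, 29.4 and 14.3 CPM in the combination tumors and 1.74, 2.09, 2.18 and 6.97 CPM in the IgG tumors (2.66 ± 0.55). Apol9b, an interferon-induced apolipoprotein L, stood at 25.6, 4.999, 19.5 and 6.79 CPM in the combination tumors and 0.983, 0.954, 0.681 and 3.43 CPM in the IgG tumors (3.14 ± 0.65). For these 3 genes IgG replicate 4 was the highest control and lay below every combination tumor. Without it limma called 6 genes, namely Mndal, Casp1, Ifi203, C130026I21Rik, BC023105 and Apol9b, all higher. Ms4a8a, a membrane protein of the MS4A family, had 179 reads over the combination libraries and 3 over the IgG libraries, a ratio of 45.6 after scaling to library size with a 95% exact interval of 15.3 to 223 that covers counting error only. Mndal and Ifi203, Apol9a and Apol9b, and the guanylate-binding proteins are neighboring close relatives, so how their reads were divided is uncertain.

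Interferon-gamma response genes stood higher in the combination group as a set. Of the 40 listed genes 36 passed the filter on low values. Of these 35 stood higher, 31 at an unadjusted p under 0.05 and 21 with no overlap, where 6.46% and 3.63% of all genes tested did so. The median log2 difference was 1.89, against -0.003 over all genes, and none passed the adjusted test. Because a gene can pass the filter through the combination libraries alone, all 39 members in the table were counted too: 38 stood higher and 22 did not overlap, where 52.2% and 4.06% of all 18975 genes did. Without IgG replicates 2 and 4 the median was 2.20. It ran from 1.61 to 2.19 when each of the 8 libraries was left out in turn, and was 1.49 with the L number as covariate and 0.94 within L8.

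Averaged over the 36 genes, the log2 level was 3.95, 3.41, 5.02 and 3.97 in the combination tumors and 1.56, 1.31, 2.35 and 3.23 in the IgG tumors. Every combination tumor lay above every IgG tumor, with the smallest gap between combination replicate 2 and IgG replicate 4. Cxcl9, a chemokine for CXCR3-bearing T cells, was singled out after its values were seen and stood at 13.5, 21.3, 53.2 and 13 CPM in the combination tumors and 0.5896, 0.656, 3.36 and 9.99 CPM in the IgG tumors (3.38 ± 1.08). Ubd, a ubiquitin-like modifier, stood at 1.97, 1.22, 7.01 and 1.99 CPM in the combination tumors and 0, 0, 0.136 and 0.528 CPM in the IgG tumors (3.88 ± 0.89). Gbp8 and Gm4951 belong to the guanylate-binding proteins and the immunity-related GTPases, which attack the vacuoles of intracellular pathogens. Gbp8 stood at 2.48, 1.13, 6.16 and 1.82 CPM in the combination tumors and 0.0328, 0.0596, 0.136 and 0.867 CPM in the IgG tumors (3.37 ± 0.89), and Gm4951 differed by 2.90 ± 0.76. These genes share an order: combination replicate 3 was the highest library and IgG replicate 4 the highest control.

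Other members differed less. Irgm1, an immunity-related GTPase, stood at 152, 118, 242 and 151 CPM in the combination tumors and 41.7, 80.3, 81.3 and 105 CPM in the IgG tumors (1.13 ± 0.45), without overlap. Cd274, which encodes the PD1 ligand PD-L1, stood at 22.4, 30.02, 27.6 and 37.8 CPM in the combination tumors and 20.2, 15.9, 44.04 and 21.4 CPM in the IgG tumors, and its groups overlapped, with IgG replicate 3 the highest of the 8. Its difference of 0.30 had an exact two-sided permutation p of 0.457.

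**Figure D2:**
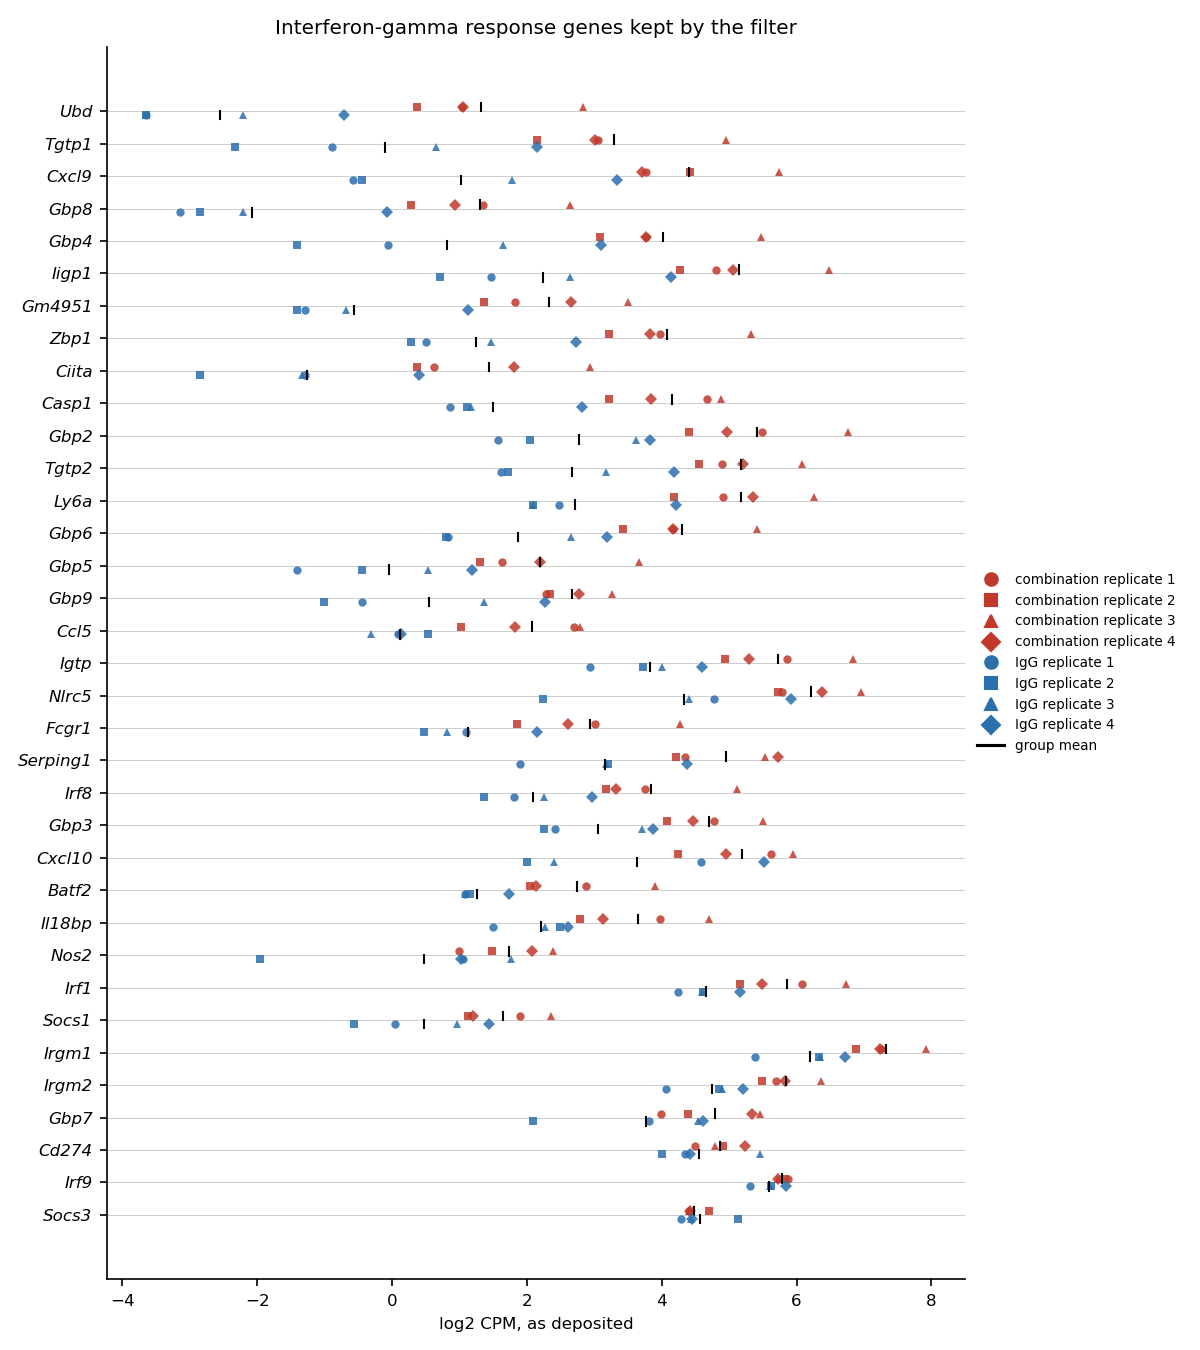
Deposited log2 CPM (x axis) of 35 of the 36 interferon-gamma response genes kept by the filter, ordered by their difference, with 1 point per library and black bars for group means. The combination points lie to the right on average for 34 of the 35, from Ubd at the top, and combination replicate 3 is the highest point for most of them; Socs3, at the bottom, is the exception.

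The stretches upstream of these genes were searched for letters of interferon elements, and 5 are shown because they belong to genes described here. The interferon-stimulated response element core was searched as GAAA, any 2 bases, GAAA, and the gamma-activated sequence as TTCNNNGAA, on both strands, in the 250 bases before each start in RefSeq (GRCm38.p6). Of the 40 listed interferon-gamma genes 22 matched an entry: 11 held the first motif and 10 the second, that is 50% and 45.5%, against 3.46% and 8.13% of 27025 genes with an entry. Among the genes named above and below for the largest differences, 10 matched an entry on the higher side and 10 on the lower. The first motif was held by 2 of the 10 on each side, the second by 1 higher and 2 lower. For genes with several starts any of them counted, and the first listed is shown. Each line gives the 120 bases just before a start, 5′ to 3′ on the gene's strand, with motif letters in capitals.
Apol9b (chr15:77728952-77729071, plus strand): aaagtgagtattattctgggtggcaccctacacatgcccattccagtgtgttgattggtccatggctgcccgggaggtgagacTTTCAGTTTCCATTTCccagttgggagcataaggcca
Mndal (chr1:173880188-173880307, minus strand): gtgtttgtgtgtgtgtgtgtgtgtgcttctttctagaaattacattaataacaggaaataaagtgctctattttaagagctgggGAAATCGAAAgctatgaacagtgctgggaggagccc
Irgm1 (chr11:48871421-48871540, minus strand): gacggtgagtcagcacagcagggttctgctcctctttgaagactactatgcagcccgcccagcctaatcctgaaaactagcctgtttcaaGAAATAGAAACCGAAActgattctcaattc
Psmb8 (chr17:34198075-34198194, plus strand): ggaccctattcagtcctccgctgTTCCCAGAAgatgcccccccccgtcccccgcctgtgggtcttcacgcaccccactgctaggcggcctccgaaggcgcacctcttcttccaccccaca
Casp1 (chr9:5298397-5298516, plus strand): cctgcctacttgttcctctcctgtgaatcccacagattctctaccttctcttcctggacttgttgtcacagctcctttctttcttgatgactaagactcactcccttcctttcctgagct
Apol9b and Irgm1 each hold 2 overlapping copies of the first motif, nearest at 31 and 24 bases before the start. Mndal holds 1 copy at 36 bases, Psmb8 holds 1 copy of the second motif at 97 bases, and Casp1 holds neither. A match is a run of letters, not a site of binding.

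Genes of MHC class I and its peptide supply stood higher too. Of 22 kept, 21 stood higher, 19 at an unadjusted p under 0.05 and 10 with no overlap, and the median difference was 1.12 (1.40 without IgG replicates 2 and 4, 0.82 with the L covariate, 0.67 within L8). Of all genes tested 6.46% stood higher at that p and 3.63% without overlap. These shares apply beside the counts of higher kept genes in every list below. Psmb8, an immunoproteasome subunit, stood at 146, 44.97, 216 and 38.2 CPM in the combination tumors and 6.91, 14.6, 8.899 and 23.2 CPM in the IgG tumors (2.83 ± 0.71). Psmb9, another such subunit, stood at 81.7, 25.1, 120.2 and 35.2 CPM in the combination tumors and 5.96, 8.89, 6.63 and 16.3 CPM in the IgG tumors (2.63 ± 0.66). H2-K1, a class I heavy chain, stood at 1148, 503, 1227 and 546 CPM in the combination tumors and 209.9, 323, 249 and 457 CPM in the IgG tumors (1.41 ± 0.39). B2m, the light chain shared by all class I molecules, stood at 1737, 1315, 2010 and 1430 CPM in the combination tumors and 619, 870.2, 753 and 1130 CPM in the IgG tumors (0.96 ± 0.26). None of the 4 overlapped, and combination replicates 1 and 3 were the highest libraries for each. Nlrc5, the transactivator of class I genes, stood at 55.2, 52.7, 124 and 82.9 CPM in the combination tumors and 27.2, 4.65, 21.1 and 60.4 CPM in the IgG tumors (1.88 ± 0.54), with IgG replicate 4 within the combination range. Reads of class I and II genes may be divided uncertainly among close relatives.

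All 9 kept genes of MHC class II presentation, of 12 listed, stood higher at an unadjusted p under 0.05, with a median difference of 2.70; the 12 in the table all stood higher. The summed level of the list was 259 to 1220 CPM in the combination tumors and 45.9 to 226 CPM in the IgG tumors, of which replicate 4 was the highest. H2-Ab1, a class II beta chain, stood at 66.1, 26.4, 160.5 and 61.5 CPM in the combination tumors and 3.87, 3.101, 4.68 and 32.1 CPM in the IgG tumors (3.28 ± 0.95). Cd74, the invariant chain, stood at 145, 71.8, 404 and 158 CPM in the combination tumors and 10.8, 10.1, 8.17 and 79.8 CPM in the IgG tumors (3.29 ± 1.03). In both genes IgG replicate 4 lay above combination replicate 2, so the groups overlapped. Ciita, the transactivator on which class II transcription depends, stood at 1.46, 1.22, 7.58 and 3.41 CPM in the combination tumors and 0.328, 0.0596, 0.318 and 1.24 CPM in the IgG tumors (2.70 ± 0.86), and there too IgG replicate 4 just passed combination replicate 2. H2-DMb1 and H2-DMa, which load peptide onto class II, did not overlap, and H2-DMb1 stood at 42.1, 32.9, 69.3 and 26.6 CPM in the combination tumors and 4.49, 19.8, 7.45 and 9.01 CPM in the IgG tumors (2.17 ± 0.54). The list median was 3.26 without IgG replicate 4 and 1.17 with the keratinocyte and muscle covariates. It was 1.875 with the L covariate and 1.12 within L8.

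Transcripts of T cells and cytotoxic cells were scarce in all 8 tumors and higher with the combination. In bulk tissue fewer cells of a type and less RNA per cell cannot be told apart. Ifng itself had 6, 1, 10 and 3 reads in the combination libraries and 0, 0, 0 and 1 in the IgG libraries. That is 20 reads against 1, a ratio of 15.3 after scaling to library size with a 95% exact interval of 2.44 to 633, and the exact two-sided permutation test gave p = 0.057. Cd8a, the coreceptor of cytotoxic T cells, stood at 0.508, 0.387, 1.77 and 0.642 CPM in the combination tumors and 0.0328, 0, 0 and 0.264 CPM in the IgG tumors. Pdcd1, which encodes PD1, stood at 0.476, 0.497, 1.03 and 0.507 CPM in the combination tumors and 0.0655, 0, 0 and 0.189 CPM in the IgG tumors. Neither gene overlapped between groups, and the exact permutation p was 0.029 for each, the smallest that 4 against 4 allow. Cd40 stood at 1.14, 0.691, 2.44 and 1.18 CPM in the combination tumors and 0.229, 0.179, 0.499 and 0.754 CPM in the IgG tumors, where IgG replicate 4 overlapped combination replicate 2 (exact permutation p = 0.057). Over the 5 genes tested in this way, Cd274 included, the adjusted p was 0.071 for each of these 4.

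Only 9 of 28 listed T cell genes and 7 of 23 cytotoxic and NK cell genes passed the filter. Over all listed genes in the table, 23 of 25 T cell genes stood higher, 12 with no overlap (median 1.59). For the cytotoxic list these were 20 of 20, 12 and 1.40. Of all 18975 genes 52.2% stood higher and 4.06% did so without overlap. Cd3g, part of the T cell receptor complex, stood at 0.476, 0.359, 0.956 and 0.5404 CPM in the combination tumors and 0.0328, 0, 0.0454 and 0.0754 CPM in the IgG tumors (2.45 ± 0.78). Nkg7, a granule protein of killer cells, stood at 0.858, 0.608, 1.31 and 0.675 CPM in the combination tumors and 0.0655, 0, 0.0454 and 0.0377 CPM in the IgG tumors (2.99 ± 0.78). Ccl5, a chemokine of activated lymphocytes, stood at 6.38, 1.96, 6.83 and 3.44 CPM in the combination tumors and 0.983, 1.37, 0.726 and 1.02 CPM in the IgG tumors (1.97 ± 0.56). None of the 3 overlapped. Trbc2, a constant region of the T cell receptor, and Slamf7, a receptor of NK and other activated cells, differed by 2.83 ± 0.84 and 1.40 ± 0.48. Thy1, which stromal cells express as well, stood at 25.3, 11.6, 26.5 and 15.4 CPM in the combination tumors and 6.06, 5.84, 7.13 and 20.7 CPM in the IgG tumors and overlapped through IgG replicate 4. The summed level of the T cell list was 42.6 to 84.4 CPM in the combination tumors and 39 to 49.5 CPM in the IgG tumors; that of the cytotoxic list was 8.78 to 26.7 and 3.58 to 5.58 CPM. B and plasma cell genes with a row numbered 11, of which 10 stood higher and 0 did so without overlap.

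Macrophage and monocyte genes stood higher for 30 of 31, with 21 at an unadjusted p under 0.05, 11 with no overlap and a median of 1.46 (0.97 with the L covariate, 0.81 within L8). Lyz2, the lysozyme of myeloid cells, stood at 157, 123, 238 and 149.9 CPM in the combination tumors and 41.01, 13.7, 81.4 and 73.1 CPM in the IgG tumors (1.92 ± 0.65). Ctss, a lysosomal protease that trims the invariant chain, stood at 166, 69.7, 218 and 71.97 CPM in the combination tumors and 16.2, 11.4, 47.7 and 38.4 CPM in the IgG tumors (2.26 ± 0.67). Fcgr4, an activating receptor for IgG, stood at 12.04, 4.696, 24.4 and 7.7 CPM in the combination tumors and 1.51, 2.21, 2.59 and 4.03 CPM in the IgG tumors (2.03 ± 0.64). The groups did not overlap for these 3 genes.

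Dendritic cell genes were less uniform, with 14 of 18 higher, 8 of them at an unadjusted p under 0.05. Their median was 0.97 (0.33 with the L covariate, 0.21 within L8). Clec10a, a lectin of dendritic cells and macrophages, stood at 3.46, 1.16, 8.0 and 9.89 CPM in the combination tumors and 0.622, 0.239, 0.136 and 0.867 CPM in the IgG tumors (3.23 ± 1.06), without overlap. Irf8, the factor that cross-presenting dendritic cells depend on, stood at 13.4, 8.95, 34.7 and 9.93 CPM in the combination tumors and 3.41, 2.505, 4.68 and 7.73 CPM in the IgG tumors (1.75 ± 0.60), also without overlap. Of 14 neutrophil genes 13 stood higher and 4 had an unadjusted p under 0.05. Among these Lcn2, an acute-phase siderophore binder, stood at 1.43, 1.02, 3.22 and 17.4 CPM in the combination tumors and 0.164, 0.537, 0.0908 and 0.0377 CPM in the IgG tumors, with combination replicate 4 the highest. Mmp9, a gelatinase, stood at 9.62, 4.17, 5.49 and 1.62 CPM in the combination tumors and 0.622, 0.0596, 0.726 and 0.302 CPM in the IgG tumors, with combination replicate 4 the lowest of its group.

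Chemokine genes stood higher for 19 of 20, 9 with no overlap, with a median of 1.77 (1.08 with the L covariate, 0.78 within L8). Ccl6, a myeloid chemokine, stood at 15.3, 23.2, 80.9 and 62.7 CPM in the combination tumors and 8.58, 3.46, 6.45 and 7.502 CPM in the IgG tumors (2.56 ± 0.75), without overlap. Cxcl10, a CXCR3 ligand like Cxcl9, stood at 49.01, 18.8, 61.4 and 31.04 CPM in the combination tumors and 23.9, 3.94, 5.22 and 45.7 CPM in the IgG tumors and overlapped, because IgG replicates 1 and 4 were as high as the lower combination tumors. Type I interferon response genes, which share many targets with interferon-gamma, stood higher for 26 of 28. Their median was 0.61 (0.47 with the L covariate, 0.25 within L8). Of these 9 did so at an unadjusted p under 0.05 and 4 without overlap, where 6.46% and 3.63% of all genes tested did so. Trim30a, a member of this list, stood at 22.2, 20.6, 26.9 and 28.8 CPM in the combination tumors and 7.14, 3.996, 18.3 and 14.4 CPM in the IgG tumors (1.38 ± 0.43).

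Genes of the CD40 and NF-kB pathway, the pathway that the agonist antibody addresses, showed no such shift as a list: 15 of 29 stood higher, 2 had an unadjusted p under 0.05 in that direction and the median was 0.04. The receptor gene Cd40 itself, given above, stood higher in 3 of 4 combination tumors than in any IgG tumor. Of 18 checkpoint and costimulation genes 12 stood higher and the median was 0.33 (-0.14 within L8). Vsir, under its older symbol 4632428N05Rik, encodes the checkpoint VISTA and stood at 18.7, 7.93, 27.3 and 15.7 CPM in the combination tumors and 3.603, 3.64, 4.58 and 7.31 CPM in the IgG tumors (1.78 ± 0.58). Cd86, the costimulatory ligand of CD28, stood at 1.84, 0.939, 3.68 and 1.93 CPM in the combination tumors and 0.721, 0.179, 0.454 and 0.754 CPM in the IgG tumors (1.83 ± 0.71). Both were free of overlap. On the lower side, Pvr, a ligand of TIGIT, stood at 41.5, 50.6, 52.5 and 49.2 CPM in the combination tumors and 71.5, 62.5, 65.6 and 62.8 CPM in the IgG tumors without overlap (-0.44 ± 0.22), and Cd276, which encodes B7-H3, differed by -0.57 ± 0.23. Among 17 immunosuppressive genes 10 stood higher, and Il1rn, the interleukin 1 receptor antagonist, stood at 9.47, 6.79, 17.7 and 4.56 CPM in the combination tumors and 3.34, 1.25, 2.13 and 3.47 CPM in the IgG tumors (1.81 ± 0.57).

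**Figure D3:**
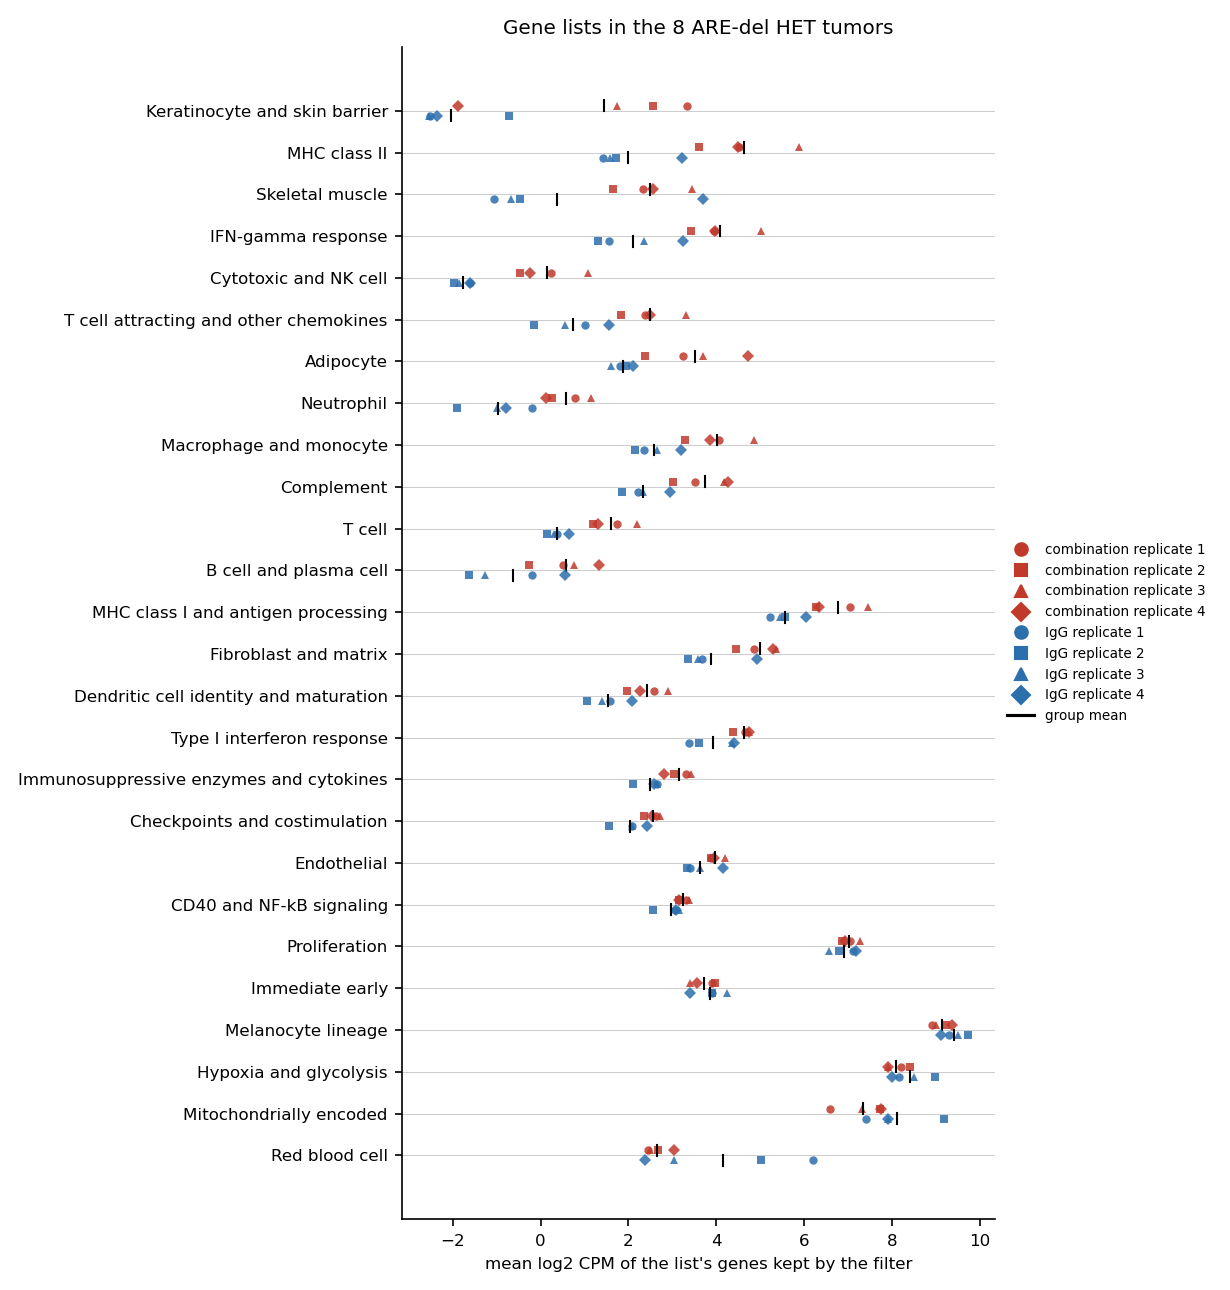
Mean log2 CPM (x axis) over the kept genes of each of the 26 lists, ordered by the difference between group means, with 1 point per library. The 4 combination tumors lie above the 4 IgG tumors for the interferon-gamma, MHC class I, MHC class II, cytotoxic, T cell, macrophage and chemokine lists among others; the keratinocyte points of the combination group run from -1.88 to 3.34 and the muscle point of IgG replicate 4, at 3.70, is the highest of the 8.

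Marker genes of skin and skeletal muscle were examined next. Keratinocyte and skin barrier genes stood higher for all 30 of 30 listed, 16 at an unadjusted p under 0.05, 6 with no overlap and a median of 3.79. Their summed level was 801, 372, 192 and 25.5 CPM in the combination tumors and 15.9, 35.6, 18.02 and 20.2 CPM in the IgG tumors, so combination replicate 4 lay within the IgG range. Dmkn, a dermokine of the epidermis, stood at 24.6, 12.4, 7.89 and 1.01 CPM in the combination tumors and 0, 0.596, 0 and 0 CPM in the IgG tumors. Skeletal muscle genes had a median of 2.12, with 27 of 29 higher and 0 free of overlap. Their summed level was 244, 156, 557 and 287 CPM against 61.7, 66.4, 57.8 and 632 CPM. Myh4, a fast myosin heavy chain, stood at 7.59, 9.67, 32.4 and 33.6 CPM in the combination tumors and 0, 0.119, 0.136 and 22.3 CPM in the IgG tumors. Without IgG replicate 4 the muscle median was 3.27. With the L number as covariate it was -0.28, with 5 of 29 genes higher. Within L8, where IgG replicate 4 is the only control, it was -1.02.

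The interferon-gamma values were set beside the skin and muscle values in 2 ways. First, combination replicate 4 had a keratinocyte list level of -1.88, within the -2.53 to -0.72 of the IgG tumors, and an interferon-gamma list level of 3.97, above the 1.31 to 3.23 of the IgG tumors. IgG replicate 4 had the highest muscle level of the 8 and an interferon-gamma level below all 4 combination tumors. That interferon-gamma level was also the highest of the IgG tumors. The combination tumors had muscle levels of 1.65 to 3.46, above the -1.06 to -0.47 of the other IgG tumors. How much of the interferon-gamma difference comes with skin or muscle tissue was not tested. Second, with both scores as covariates over the 30 libraries, the median difference was 1.23 for interferon-gamma genes, with 35 of 36 higher. Of the 36, 9 had an unadjusted p under 0.05 in either direction, where 808 of all 15002 genes did in that fit. The median was 0.54 for class I, 1.17 for class II and 0.57 for macrophage genes. For the 7 kept cytotoxic and 9 kept T cell genes it was 0.81 and 0.07, against 1.90 and 1.12 without the covariates. With the covariates Casp1 differed by 1.84, Mndal by 2.54 and Psmb8 by 1.43.

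**Figure D4:**
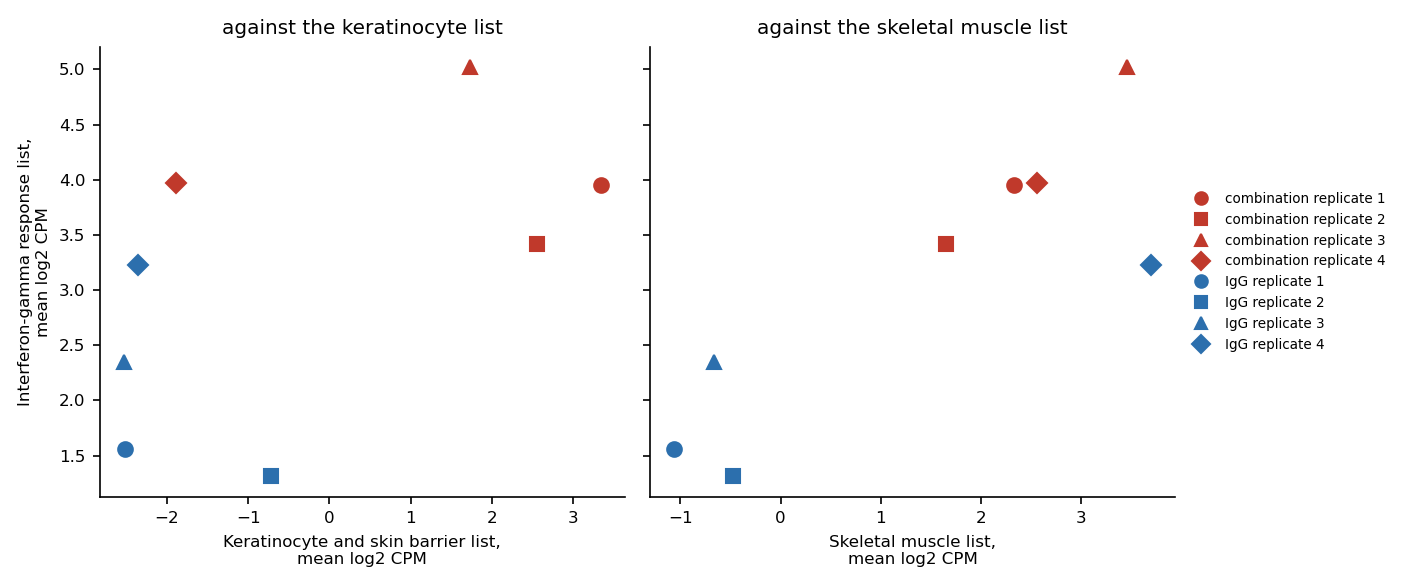
Interferon-gamma response level (y axis, mean log2 CPM) against the keratinocyte level (left) and the skeletal muscle level (right), with 1 point per library, red for the combination and blue for IgG. Combination replicate 4, the red diamond, sits at the keratinocyte level of the IgG tumors with an interferon-gamma level of 3.97. IgG replicate 4, the blue diamond, has the highest muscle level, and its interferon-gamma level of 3.23 is the highest of the IgG tumors.

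Fat and matrix genes also stood higher. Of 17 adipocyte genes 14 stood higher, 10 at an unadjusted p under 0.05. Their median was 1.34 (0.64 with the L covariate, 0.70 within L8). Cidec and Plin1, proteins of the lipid droplet, ran from combination replicate 2 as the lowest of its group to replicate 4 as the highest, and Cidec stood at 1.97, 0.221, 3.96 and 18.7 CPM in the combination tumors and 0.0983, 0.119, 0.0908 and 0.0377 CPM in the IgG tumors (4.00 ± 1.08). Fabp4, a fatty acid carrier also made by macrophages and endothelium, stood at 75, 61.4, 80.3 and 131 CPM in the combination tumors and 38.8, 23.6, 30.96 and 41.7 CPM in the IgG tumors (1.34 ± 0.40). Fasn, the fatty acid synthase that many cell types express, stood at 387, 666, 577 and 696 CPM in the combination tumors and 817, 941, 749 and 748 CPM in the IgG tumors (-0.51 ± 0.26). None of these 4 genes overlapped. Fibroblast and matrix genes stood higher for 24 of 26, with a median of 1.13 that was -0.14 within L8. Dcn, the matrix proteoglycan decorin, stood at 13.3, 11.3, 32.6 and 27.2 CPM in the combination tumors and 1.64, 4.47, 2.59 and 5.202 CPM in the IgG tumors (2.56 ± 0.80), and Mmp2, a gelatinase of stroma, stood at 17.98, 14.2, 19.2 and 19.8 CPM in the combination tumors and 4.82, 5.84, 7.67 and 8.94 CPM in the IgG tumors (1.40 ± 0.39). Of 19 complement genes 17 stood higher, with Cfd and C3 among them. The median was 1.23 (0.81 with the L covariate, 0.60 within L8). Cd55, which protects cells from complement, differed by 2.89 ± 0.91, and the fibrillar collagen Col3a1 of the fibroblast list by 1.93 ± 0.68. Which part of the complement and acute-phase differences comes with the fat and stroma transcripts was not tested.

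The genes with the largest negative differences were D10Bwg1379e, Jph2, Nav1, Fam81a, Cfi, Per1, Trim9, Slc22a14, Srgap3, Zfp551, Fbxl7 and Plekhh2. Their differences were smaller than those on the other side, from -1.68 to -1.14. Jph2, a junctophilin that couples surface and internal membranes, stood at 6.13, 4.502, 4.39 and 11.5 CPM in the combination tumors and 20.2, 18.6, 27.6 and 12.9 CPM in the IgG tumors (-1.63 ± 0.39, adjusted p = 0.251 in limma). Fam81a stood at 3.94, 6.35, 4.53 and 6.96 CPM in the combination tumors and 15.8, 21.9, 12.98 and 10.1 CPM in the IgG tumors (-1.45 ± 0.39). Srgap3 stood at 0.667, 2.15, 1.03 and 1.69 CPM in the combination tumors and 2.59, 2.803, 3.13 and 3.09 CPM in the IgG tumors (-1.15 ± 0.29). Per1, a repressor of the circadian clock, stood at 35.9, 67.1, 32.8 and 39.3 CPM in the combination tumors and 90.6, 92.2, 161 and 68.7 CPM in the IgG tumors (-1.22 ± 0.40). The complement regulator Cfi stood at 1.05, 0.884, 0.425 and 0.979 CPM in the combination tumors and 1.18, 3.64, 2.41 and 2.11 CPM in the IgG tumors (-1.36 ± 0.50), against the direction of its list. For D10Bwg1379e the combination replicates 1 and 3 were the lowest libraries, at 2.48, 12.7, 3.89 and 15.3 CPM in the combination tumors and 22.2, 20.1, 24.7 and 18.7 CPM in the IgG tumors, and its difference of -1.68 was -0.42 with the skin and muscle covariates. The symbol Nav1 belongs to more than 1 row of the table, and the row meant is ENSMUSG00000090399.1.

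Melanocyte genes stood lower for 15 of 18, with a median of -0.32. Of all genes tested 3.35% stood lower at an unadjusted p under 0.05 and 1.4% lay below every IgG library. Of these 18, 2 stood lower at such a p and 1 lay below every IgG library. That gene, named after its values were seen, was Sox10, a transcription factor of the melanocyte lineage, at 593, 647, 619 and 642 CPM in the combination tumors and 700.3, 781, 807 and 715 CPM in the IgG tumors (-0.26 ± 0.16). Without IgG replicate 2 the list median was -0.19, and within L8 it was 0.01. Tyrp1, a melanosomal enzyme, stood at 5043, 7223, 7421 and 9555 CPM in the combination tumors and 8671, 14940, 7926 and 8754 CPM in the IgG tumors and Pmel, a melanosome fibril protein, at 6059, 8404, 5776 and 7071 CPM in the combination tumors and 6375, 23390, 10500 and 6942 CPM in the IgG tumors, with IgG replicate 2 the highest library for both. Of 30 proliferation genes 25 stood higher (median 0.11), and none differed at an unadjusted p under 0.05. That median was -0.02 without IgG replicate 3 and -0.01 with the skin and muscle covariates, where 14 of 30 stood higher. Hypoxia and glycolysis genes stood lower for 23 of 25 (median -0.33, -0.07 without IgG replicate 2). Adm, the hypoxia-induced peptide adrenomedullin, stood at 35.7, 26.96, 28.04 and 23.8 CPM in the combination tumors and 46.3, 102, 67.7 and 37.9 CPM in the IgG tumors, without overlap (-1.06 ± 0.31). Vegfa, an angiogenic factor, stood at 146, 219.5, 113 and 170.2 CPM in the combination tumors and 229, 244, 382 and 179.6 CPM in the IgG tumors and overlapped.

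All 10 kept red blood cell genes stood lower, with a median of -2.03. Hbb-bs, a beta globin, stood at 25.5, 24.8, 20.2 and 46.8 CPM in the combination tumors and 978, 294, 45.5 and 25.6 CPM in the IgG tumors, and Alas2, the erythroid heme enzyme, at 0.667, 1.69, 1.24 and 2.74 CPM in the combination tumors and 74.7, 19.98, 3.27 and 1.21 CPM in the IgG tumors. IgG replicates 1 and 2 were the highest libraries for both genes, while replicates 3 and 4 lay close to the combination tumors, and within L8 the median was 0.24. Mitochondrially encoded genes stood lower for 14 of 15 (median -0.77, -0.33 without IgG replicate 2). Of these 5 did so at an unadjusted p under 0.05 and 0 without overlap, where 3.35% and 1.4% of all genes tested did. Endothelial genes had a median of 0.26 and immediate early genes of -0.22, with 1 endothelial gene at an unadjusted p under 0.05.

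The single antibodies place the response. All comparisons with IgG share the same 4 IgG tumors. The anti-PD1 libraries are all L7 and the anti-CD40 libraries are L7, L7, L7 and L8. The L number was not fitted for comparisons that use the single antibodies. Anti-PD1 alone against IgG left the interferon-gamma median at 0.26, with 0 of 36 genes higher at an unadjusted p under 0.05 (0.6% of all genes), and the class II median at -0.11. Anti-CD40 alone against IgG gave 2.15, with 32 of 36 (8.12% of all genes), and 2.96 for class II. Neither comparison called a gene by limma or voom. At an unadjusted p under 0.05 there were 144 genes with anti-PD1 and 2230 with anti-CD40 (134 and 2172 by voom). Skin and muscle genes split in the same way. The keratinocyte median was 0.47 with anti-PD1 and 3.39 with anti-CD40, and the muscle median was 0.18 and 2.33. How much of the interferon-gamma and class II differences comes with skin or muscle tissue was not tested here either. Cxcl9 averaged 3.65 ± 4.42 CPM (SD, n = 4) with IgG, 3.82 ± 3.21 CPM (n = 3) with anti-PD1, 31.9 ± 31.5 CPM (n = 4) with anti-CD40 and 25.2 ± 19.01 CPM (n = 4) with the combination. Casp1 averaged 3.24 ± 2.49 CPM, 3.16 ± 1.73 CPM, 16.97 ± 12.3 CPM and 19.6 ± 9.396 CPM in the same order. For both genes the 2 groups without anti-CD40 lay within 1 SD of each other, as did the 2 groups with it.

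Set directly against anti-PD1 alone, the combination was higher for 34 of 36 interferon-gamma genes, 25 at an unadjusted p under 0.05 (6.15% of all genes), with a median of 1.69. All anti-PD1 libraries are L7 and all combination libraries are L8, so this difference cannot be told apart from the L number. Class II differed by 2.97, keratinocyte genes by 3.23 and muscle genes by 2.03 at the median. Against anti-CD40 alone the interferon-gamma median was -0.07, with 0 genes higher at that level (0.467% of all genes), and class II differed by -0.24. No gene was called by limma in either comparison, with 1765 genes at an unadjusted p under 0.05 against anti-PD1 and 92 against anti-CD40 (1804 and 110 by voom, which called 0). The genes that differed most from anti-PD1 were Dmkn, Serpinb2, Anxa8, Ccl8, Lbp and Car3 on the higher side, of which Lbp, the lipopolysaccharide-binding protein, differed by 4.12 ± 1.18. The chemokine gene Cxcl9 differed by -0.09 ± 1.08 from anti-CD40 alone and Casp1 by 0.35 ± 0.55, so their intervals cover differences in either direction. The 92 genes against anti-CD40 are fewer than a threshold of 0.05 gives on average over 15002 genes with no difference. Among the genes that differed most from anti-CD40, Cd1d1, which presents lipids to NKT cells, differed by 0.79 ± 0.38. Slc3a2, an amino acid transporter chain, differed by -0.40 ± 0.15.

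Non-additivity, the combination minus both single antibody effects on the log2 scale, was called for 0 genes by limma and by voom. At an unadjusted p under 0.05 it was found for 185 genes (199 by voom), 0.687% of genes being above additivity. These counts too are fewer than that threshold gives on average over 15002 genes with no difference. The interferon-gamma median was -0.47, and 0 of 36 were above additivity at that level. Ralgps2, a guanine nucleotide exchange factor, was among the genes most above it, at 1.36 ± 0.60. It averaged 5.21 ± 1.54 CPM with IgG, 3.04 ± 1.15 CPM with anti-PD1, 10.1 ± 6.35 CPM with anti-CD40 and 14.9 ± 8.75 CPM with the combination. Fmo2, a monooxygenase, was among those most below it, at -2.12 ± 0.71.

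In wild type hosts the same comparison, 3 combination tumors against 5 IgG tumors, gave an interferon-gamma median of 0.30, with 1 of 36 genes higher at an unadjusted p under 0.05 (0.213% of all genes); no gene was called by limma or voom, while an unadjusted p under 0.05 was reached by 62 (54 in voom). All wild type IgG libraries are L5 and all wild type combination libraries are L6. Neither the wild type response nor its difference from the HET response can therefore be told apart from the L number. The difference between the HET and wild type responses was tested itself. It was called for 0 genes by limma and by voom, while an unadjusted p under 0.05 was reached by 525 genes (321 in voom), 2.43% of genes with the larger response in HET. Over 15002 genes with no difference that threshold gives more on average. Among interferon-gamma genes 35 of 36 had the larger response in HET, 9 at that level, with a median of 1.66. Class II had a median of 2.79, with 8 of 9 at that level, and class I 1.10, with 7 of 22. The keratinocyte median was 4.74 and the muscle median 2.22. Casp1 differed between genotypes by 2.21 ± 0.79 (adjusted p = 0.9899 in limma). The genes with the largest genotype differences were the keratins Krt14, Krt6a, Krt5 and Krt17, with Cfd and S100a9. Krt14 averaged 0.809 ± 1.57 CPM and 69.1 ± 76.5 CPM in HET hosts and 31.5 ± 66.4 CPM and 0.03896 ± 0.0358 CPM in wild type hosts, with IgG first, and 1 wild type IgG tumor at 150.2 CPM set that group's mean.

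**Figure D5:**
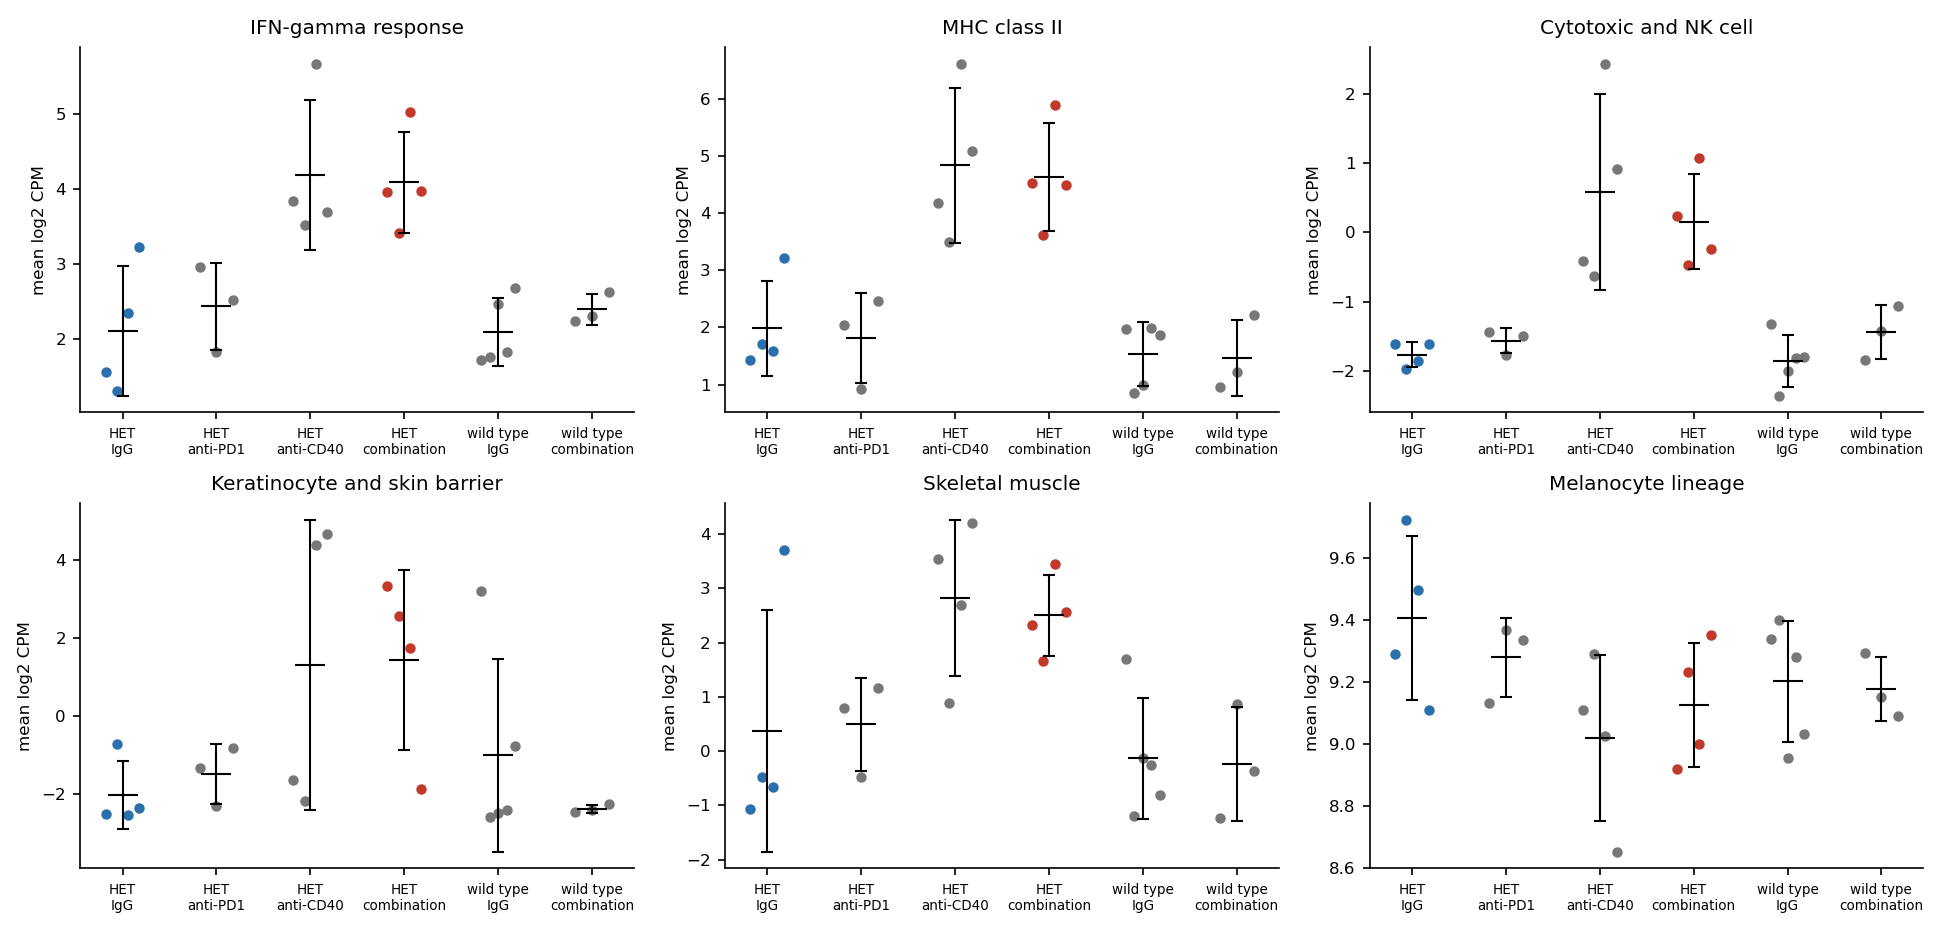
Mean log2 CPM (y axes) over the kept genes of 6 lists, with 1 point per library and bars for mean and SD, in the 4 HET groups and in the wild type IgG and combination groups. The interferon-gamma, class II and cytotoxic points of the HET anti-CD40 and combination groups lie above those of HET IgG; the keratinocyte and muscle points spread widely within groups.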

How the data were processed

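RNA libraries of 30 B16F10 tumors in 8 groups of genotype and treatment were analysed, 4 against 4 in the comparison described. The submitters' processing notes name STAR, edgeR and the mm10 build; versions, the counting tool, its strand setting and the annotation are not given in the sources used here. RNA was purified with Maxwell 16 LEV simplyRNA kits and libraries were TruSeq, per the labels' protocols. The authors deposited normalized log2 values, 1 per gene and library, for 18975 genes. Each deposited log2 value could be taken back to whole reads, with all values within 0.01 of a whole number in every library, once a prior count of 2, scaled by depth, was taken off. The CPM printed are these reads scaled to library size, without the prior.

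The low-value filter asked for log2 over 0 in 3 or more of the 30 libraries and left 15002 genes. The deposited values were fitted with limma 3.58.1 (R 4.3.3; trend, 8 group means, 1 shared spread), with Benjamini-Hochberg adjustment over all genes kept and a threshold of 0.05. Log2 differences and their SE come from this fit, and because of the prior count they understate the change of low genes. For 5 core genes exact permutation tests over the 70 arrangements of 4 against 4 were run. The fit was tested on simulated data. Tables were handled in Python 3.11.15 with pandas 2.3.3 and numpy 2.4.6. The 26 lists hold 626 entries, of which 596 have a row. The members and lists were chosen with earlier results of these data known. Named were the core genes, the 12 genes highest and 12 lowest among those with an unadjusted p under 0.05, no overlap between the groups and a mean log2 value above 0 (6 and 6 for each other contrast; for the 2 interaction contrasts, which have no pair of groups, the overlap condition was dropped), and from each list the 2 with the highest mean and up to 4 with the smallest p; others were chosen after their values were seen. Coordinates are from GENCODE vM21 (18837 of 18975 identifiers found, 17791 with the same symbol). Reads of genes that overlap, also on opposite strands, and of near-identical relatives cannot be told apart here. Depth limits genes with few reads, and intervals printed for these cover counting error only. Alternatives covered the filter, scaling, prior count, voom, intensity trend, library weights, libraries fitted, the replicate number, the L number, the skin and muscle scores and each library left out. The wild type anti-PD1 and anti-CD40 libraries entered only the low-value filter, the shared spread, the scaling alternatives and the covariate fits over the 30 libraries. The values of 1 gene of the interferon-gamma list are not reported here; it is counted in that list's totals.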

Additional observations from a re-analysis of the deposited data

Results flagged for a closer look

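In 118 sets of 4 values, each a measure in 1 group, 8 had a library whose gap to the nearest of the others was most of the whole range; chance gives about 1 in 20. Of these 8, 4 belonged to IgG replicate 2 and 3 to IgG replicate 4. Pdcd1, the PD1 gene, had a log2 value of 0.15 in combination replicate 3, with -0.85 to -0.77 in the others of its group. The MHC class II list had a mean log2 level of 3.21 in IgG replicate 4, with 1.43 to 1.71 in the other IgG tumors. Ifng was detected in that library alone among the IgG tumors (1 read, log2 -3.09). With no read in the others, any single read gives such a gap. The skeletal muscle list stood at 3.70 there and at -1.06 to -0.47 in the others. In IgG replicate 2 the CD40 and NF-kB list stood at 2.56, below the 3.06 to 3.15 of the others, and the immunosuppressive list at 2.10, below 2.58 to 2.66. Its keratinocyte list stood at -0.72, above -2.53 to -2.36. Xist, the RNA that coats the inactive X chromosome, had a log2 value of 1.23 in that library and of 4.84 to 5.44 in the other IgG tumors.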

How the results depend on the processing

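Among 23 alternatives, the number of genes called between combination and IgG was 407 with library weights, 1 with only the HET libraries fitted (Ms4a8a) and 1 with the replicate block (C3), and ran from 0 to 6 when single libraries were left out, 6 being without IgG replicate 4. Combination against anti-PD1 ran from 0 to 1, the 1 without anti-PD1 replicate 2. Genes with an unadjusted p under 0.05, 1472 in the fit reported, numbered 161 with the L number, 326 within L8, 808 with skin and muscle covariates, 950 with a stricter filter, 4353 with library weights, and 787 to 2292 with single libraries left out. Genes whose groups do not overlap, 754 as reported, numbered 484 with the stricter filter, 852 to 1812 with single libraries left out (1451 and 1524 without combination replicates 2 and 4, 1730 and 1812 without IgG replicates 2 and 4) and 3998 without IgG replicates 2 and 4, an alternative chosen after seeing the data; smaller groups overlap less by construction. For the other changes the cause was not tested. Same-numbered libraries did not vary together (r = -0.35, 0.07, -0.34 and 0.15), so the numbers were not taken as pairs; with the replicate block 1220 genes had an unadjusted p under 0.05.

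Of 89 named genes followed, these changed sign: Cd274 to -0.043 without IgG replicates 2 and 4; within L8, Myh4 to -0.40, Cxcl10 to -0.33, Thy1 to -0.16, Dct to 0.0028, Hbb-bs to 0.12 and Alas2 to 0.21; Dct to 0.13 after quantile normalization; and Tyrp1 to 0.0099 with the skin and muscle covariates. Medians of 10 of 26 lists changed sign under some alternative. Within L8 they were -0.14 for checkpoints, 0.01 for melanocyte, -0.13 for proliferation, 0.11 for hypoxia, -1.02 for muscle, -0.22 for endothelial, -0.14 for fibroblast, 0.24 for red cell and 0.51 for immediate early genes. With the L number as covariate the muscle median was -0.28 and the endothelial median -0.02. The keratinocyte median was -0.06 with the skin and muscle covariates, which were built from that list. Interferon-gamma, MHC, macrophage, cytotoxic and chemokine medians stayed above 0 under every alternative run.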
